A study of Mus musculus with 11 samples.

Results

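The genes described are 28 genes of cholesterol synthesis, its control and cholesterol transport in mouse embryonic fibroblasts. They are the lines of the deposited count table, out of 53924 lines with a gene name, whose name is in a list of sterol genes. The list has 7 enzymes of the mevalonate pathway, 11 enzymes from squalene to cholesterol, 5 genes that control the sterol-regulated transcription factors (SREBPs) and 5 genes of transport and efflux. All 28 were in the table and all 28 passed the filter on low counts. The study measured RNA in fibroblasts from mouse embryos of day 13.5 at passage 2, grown in medium with fetal bovine serum. Libraries came from Trex1-/- cells (3 libraries), Trex1D18N cells (3 libraries, D18N below), Trex1p212fs cells (2 libraries, p212fs below) and WT cells (3 libraries). Trex1 encodes a DNA exonuclease, and the study set these modifications of the gene side by side. The labels do not give the zygosity of D18N or p212fs, the strain, or whether libraries came from separate embryos or cultures, so each p-value reflects only how these libraries spread, which may be technical. The growth text names both primary and spontaneously immortalized fibroblasts without saying which library is which.

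Cells make cholesterol from acetyl-CoA through mevalonate, isoprenoid diphosphates, squalene and lanosterol, and fibroblasts also take it up from serum lipoproteins. SREBP-2, the product of Srebf2, is carried from the endoplasmic reticulum by SCAP when sterol is low and then switches on the synthesis enzymes, while INSIG proteins hold SCAP back when sterol is high. Cholesterol from lipoproteins leaves the lysosome through NPC2 and NPC1, and ABCA1 exports cholesterol to apolipoproteins. Abca1, Mylip and Srebf1 are known targets of the oxysterol receptors LXR.

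Total counts per library ranged from 16059426 in WT 2 to 21748034 in Trex1-/- 1. The lowest count of any of the 28 genes in any library was 83 (Fdps) and the highest 18198 (Npc2). No read was counted for Trex1 in any of the 11 libraries, and the genotype labels could not be checked on it. Xist and the Y-linked gene Ddx3y gave a female pattern in Trex1-/- 2, D18N 1 and all 3 WT libraries, and a male pattern in Trex1-/- 1 and 3, D18N 2 and 3 and both p212fs libraries. Genotype and embryo sex therefore cannot be told apart within p212fs and WT alone. Trex1-/- and D18N, with both patterns, each hold libraries from more than 1 embryo, while for p212fs and WT this cannot be told. In bulk RNA, fewer cells of a type and less RNA per cell cannot be told apart. D18N 1 stood apart for the synthesis enzymes and results that rest on it are given with and without it. Without it, D18N libraries have a male pattern and WT libraries a female one, so their genotype and embryo sex cannot be told apart.

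Promoter sequence shows which control motifs lie just before these genes, and windows of the 250 bases upstream of annotated start sites were read from RefSeq (GRCm38.p6). There were 31 windows for 23 of the 28 genes. The CCAAT box, bound by NF-Y, which acts with SREBPs at sterol genes, was in 21 of 31 windows (67.7%), against 33.8% of all 32851 windows. The SREBP element core TCACNCCAC was in 1 window (3.23%, against 1.05% of all), the E-box CACGTG in 6 (19.4%, against 6.02%), and a direct repeat of GGTNA with 5 bases between the copies, of the kind LXR binds, in 2 (6.45%, against 0.621%). Among the 15197 windows of genes tested here, the shares were 34.8% for the CCAAT box and 1.02% for the SREBP element core. They were 7.98% for the E-box and 0.401% for the direct repeat. Both strands were searched for each motif. A match is a description of letters and not a shown binding site. The 6 windows below belong to 4 of the 6 genes called against WT (Abca1, Insig2, Mvk and Ebp) and to Srebf1 and Hmgcs1, which hold the other direct repeat and the single SREBP element core. Of the other called genes, Npc2 has a window, not printed, with CCAAT matches at positions -75 and -6, and Npc1 has none. Capitals mark matches on either strand, and no matches of different motifs share bases in these windows.
Abca1, chr4:53159896-53160145, minus strand: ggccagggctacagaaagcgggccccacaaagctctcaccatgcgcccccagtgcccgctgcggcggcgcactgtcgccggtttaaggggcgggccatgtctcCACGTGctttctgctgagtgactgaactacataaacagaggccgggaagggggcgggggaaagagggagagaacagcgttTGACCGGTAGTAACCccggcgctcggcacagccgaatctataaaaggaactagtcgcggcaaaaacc
Srebf1, internal start, chr11:60210472-60210721, minus strand: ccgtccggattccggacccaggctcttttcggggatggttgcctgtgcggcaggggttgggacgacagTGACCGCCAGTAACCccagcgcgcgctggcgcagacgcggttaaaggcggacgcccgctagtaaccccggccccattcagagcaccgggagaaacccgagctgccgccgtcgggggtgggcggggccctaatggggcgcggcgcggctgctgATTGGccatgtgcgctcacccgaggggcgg
Hmgcs1, chr13:119690101-119690350, plus strand: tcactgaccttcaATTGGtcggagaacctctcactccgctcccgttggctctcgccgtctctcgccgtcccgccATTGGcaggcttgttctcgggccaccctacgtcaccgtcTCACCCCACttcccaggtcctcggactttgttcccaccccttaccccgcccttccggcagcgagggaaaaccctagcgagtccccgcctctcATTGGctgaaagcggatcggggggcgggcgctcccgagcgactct
Mvk, chr5:114444019-114444268, plus strand: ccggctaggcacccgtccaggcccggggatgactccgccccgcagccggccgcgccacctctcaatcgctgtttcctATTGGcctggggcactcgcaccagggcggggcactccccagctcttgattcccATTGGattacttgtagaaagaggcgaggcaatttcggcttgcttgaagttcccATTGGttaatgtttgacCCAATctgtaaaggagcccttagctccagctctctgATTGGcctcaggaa
Ebp, chrX:8193513-8193762, minus strand: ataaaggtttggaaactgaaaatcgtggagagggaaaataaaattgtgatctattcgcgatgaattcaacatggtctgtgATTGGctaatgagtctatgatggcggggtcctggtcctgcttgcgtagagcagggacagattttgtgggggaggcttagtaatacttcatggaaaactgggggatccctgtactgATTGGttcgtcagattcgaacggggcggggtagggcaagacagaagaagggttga
Insig2, chr1:121332590-121332839, minus strand: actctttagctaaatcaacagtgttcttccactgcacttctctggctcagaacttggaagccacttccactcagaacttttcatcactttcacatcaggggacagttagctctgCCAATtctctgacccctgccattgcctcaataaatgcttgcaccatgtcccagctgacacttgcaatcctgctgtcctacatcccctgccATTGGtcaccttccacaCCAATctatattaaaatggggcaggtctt
The direct repeat begins at position -67 from the Abca1 start site and at position -182 from this Srebf1 start site. The SREBP element core begins at position -137 from the Hmgcs1 start site. Mvk has 5 CCAAT matches, Hmgcs1 and Insig2 have 3 each and Ebp has 2. Insig2 and Srebf1 have 3 windows each, of which 1 is printed. The other Insig2 windows held no match, and of the other Srebf1 windows 1 held a CCAAT match. The genes themselves lie at chr4:53030787-53159895 (Abca1), chr5:114444269-114460591 (Mvk), chrX:8185329-8193512 (Ebp) and chr1:121304353-121332589 (Insig2) in GRCm38.

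Levels between genes were compared as CPM, the count scaled to an equal library total, per kilobase of exon (kb), with exon lengths from GENCODE M21. In WT cells the highest of the 28 was Npc2, which carries cholesterol inside the lysosome, at 73.2 CPM per kb. Next came Cyp51, the lanosterol demethylase (47.5 CPM per kb), Hmgcs1, the cytosolic HMG-CoA synthase (42.9 CPM per kb), and Srebf2 (42.5 CPM per kb). At the low end stood Npc1, the lysosomal membrane exporter (4.44 CPM per kb), Abca1 (3 CPM per kb), Tm7sf2, a sterol reductase (2.84 CPM per kb), and Fdps, the farnesyl diphosphate synthase (1.67 CPM per kb). Of the exonic bases of Fdps, 26.7% are shared with the same-strand gene Gm43738, so its count is uncertain. Of those of Tm7sf2, 12.1% are shared with the same-strand gene Vps51. Scap (13.2%), Hmgcs1 (12.1%) and Idi1 (9.22%) share bases with opposite-strand genes. Fdft1 shares 18.3% with the opposite-strand gene Ctsb, and Acat2 has a neighbouring copy, Acat3 (chr17:12923813-12940600 in GRCm38). The strand setting and the treatment of shared reads are not given in the sources used here.

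The 18 synthesis enzymes differed more among the Trex1-/- and among the D18N libraries than among the WT libraries. Summed over the enzymes, the level was 1717, 1100.2 and 1166 CPM in Trex1-/- 1, 2 and 3. It was 863, 1305 and 1450 CPM in D18N 1, 2 and 3, 1659 and 1545 CPM in the p212fs libraries, and 1234, 1370 and 1344 CPM in the WT libraries. Trex1-/- 1, D18N 3 and both p212fs libraries lay above the WT range, and D18N 1, Trex1-/- 2 and Trex1-/- 3 below it. D18N 1 had the lowest level of all 11 libraries for 13 of 18 enzymes and was above the gene's own mean for 0 of 18. Trex1-/- 1 had the highest level for 7 enzymes and p212fs 1 for 8. Cell cycle genes, a list of 12, summed to 973, 2029 and 1762 CPM in Trex1-/- 1, 2 and 3, 521, 861 and 1087 CPM in D18N 1, 2 and 3, and 1223 and 1326 CPM in p212fs 1 and 2, against 1794 to 1962 CPM in WT. Trex1-/- 1 thus had the highest enzyme sum and a low cell cycle sum, while D18N 1 was lowest in both. The part of the cell cycle in the enzyme levels was not tested.

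**Figure D1:**
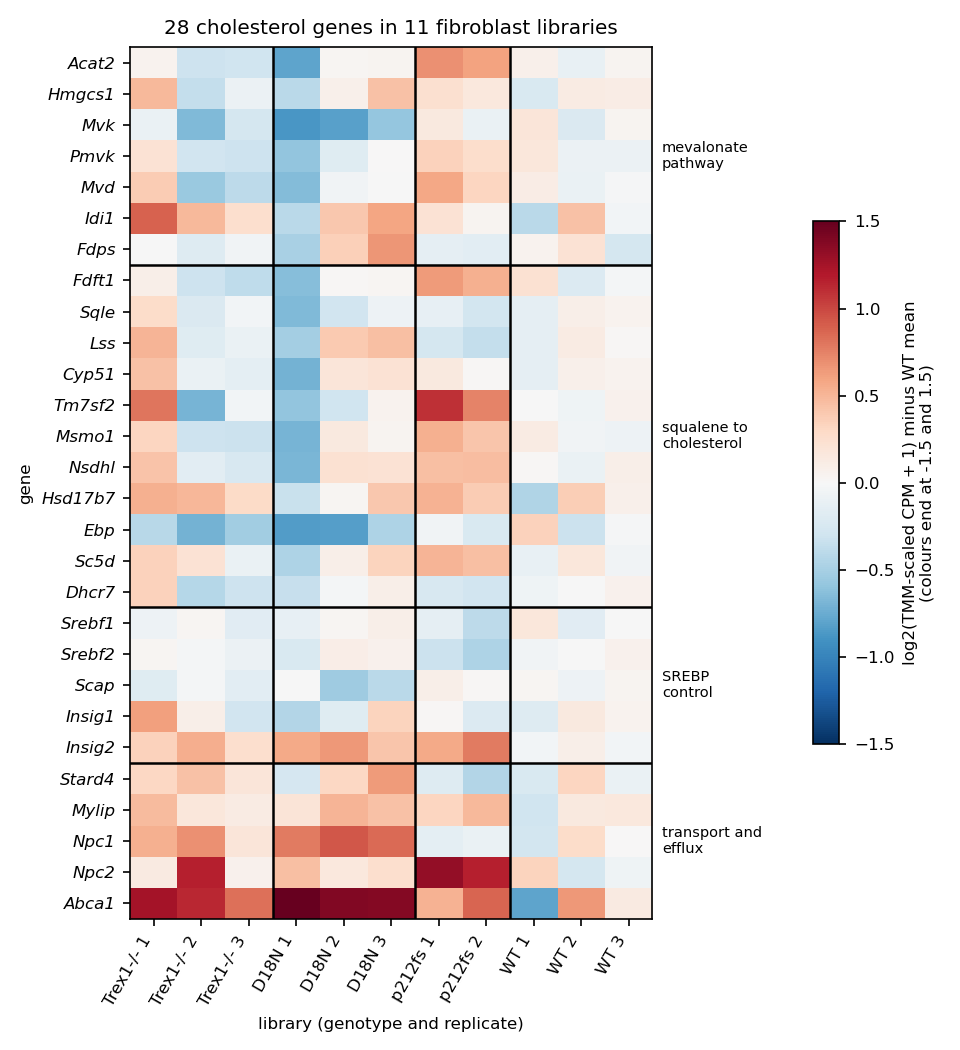
Level of each of the 28 genes (rows, grouped by role) in each library (columns, grouped by genotype), as log2(TMM-scaled CPM + 1) minus the WT mean, with red above and blue below WT. D18N 1 is blue for all 18 enzymes, both p212fs columns are red for Acat2, Fdft1 and Tm7sf2, and Insig2 and Abca1 are red in all 8 mutant libraries.

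In D18N cells against WT cells, 5 of the 28 genes changed: Abca1, Npc1 and Insig2 rose, and Mvk and Ebp fell. A gene is called here at an adjusted p under 0.05 by edgeR's quasi-likelihood test with Benjamini-Hochberg adjustment over the 16990 genes tested. The 5 genes are 17.9% of the 28, against 25.3% of all genes called either way. The 3 that rose are 10.7% of the 28, against 12.2% of all genes called higher, and the 2 that fell are 7.14%, against 13.2% of all genes called lower. Of the 18 enzymes, 0 rose and 2 fell, and their median log2 fold change was -0.11, against 0.04 for all genes. For 4 of the 28 (14.3%) all D18N libraries were above all WT libraries, against 22.1% of all genes. None of these shares exceeded that of all genes. Without D18N 1, 3 of the 28 were called higher and 3 lower (10.7% each, against 7.85% and 8.85% of all genes), and the enzymes' median was 0.06, against 0.01 for all genes. The fitted fold change was then above 0 for 21 of the 28, against 12 with D18N 1, so the sign of the enzymes' median rests on that library. The fit without D18N 1 sets 2 male-pattern D18N libraries against female-pattern WT libraries, so it cannot separate genotype from embryo sex. With D18N 1 and a sex term, the fold change was above 0 for 6 of the 28.

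Abca1, the cholesterol exporter, had 92.3, 74.2 and 74.7 CPM in the D18N libraries, against 15.5, 46.3 and 31.5 CPM in the WT libraries. All 3 D18N libraries lay above all 3 WT libraries, and WT 1 was lowest of all. Abca1 rose 2.63-fold (log2 fold change 1.39 ± 0.30 SE; edgeR, adjusted p = 0.00996). Npc1 had 86.5, 93.3 and 89.0 CPM in the D18N libraries, against 39.3, 61.6 and 50.0 CPM in the WT libraries. The groups did not overlap, and D18N was the genotype with the highest Npc1. Npc1 rose 1.80-fold (log2 fold change 0.85 ± 0.16 SE; edgeR, adjusted p = 0.00523). In the GRCm38 annotation, 5.31% of the exonic bases of Npc1 overlap other genes, mainly Rmc1 on the opposite strand.

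Insig2, which holds SCAP in the endoplasmic reticulum, had 43.5, 44.8 and 38.4 CPM in the D18N libraries, against 27.1, 31.4 and 28 CPM in the WT libraries. Every D18N library was above every WT library. It rose 1.48-fold (log2 fold change 0.56 ± 0.12 SE; edgeR, adjusted p = 0.00961). Its relative Insig1, itself a known SREBP target, had 65.6, 76.2 and 111 CPM in the D18N libraries, against 75.1, 100.4 and 92.1 CPM in the WT libraries, and these ranges overlapped. Srebf1 ranged from 138 to 157 CPM in D18N and from 136 to 163 CPM in WT. Srebf2 ranged from 262 to 319 CPM in D18N and from 285 to 319.7 CPM in WT, so neither SREBP gene separated the groups.

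Mvk, the mevalonate kinase, had 32.2, 32.7 and 39.1 CPM in the D18N libraries, against 65.0, 52.2 and 61.3 CPM in the WT libraries. The D18N libraries were all below WT, D18N 2 and 3 included, whose summed enzyme level was not below WT. Mvk fell to 0.585 of the WT level (log2 fold change -0.77 ± 0.17 SE; edgeR, adjusted p = 0.00911). Ebp, an X-linked sterol isomerase, had 20.7, 20.5 and 26.8 CPM in the D18N libraries, against 46.5, 30.8 and 37.4 CPM in the WT libraries. Again the groups did not overlap. Ebp fell to 0.595 of the WT level (log2 fold change -0.75 ± 0.18 SE; edgeR, adjusted p = 0.0145), and without D18N 2 it was no longer called (adjusted p = 0.0619). In D18N 1, which has the same female pattern as WT, each of these 5 genes was outside the WT range in the same direction as in D18N 2 and 3. Without D18N 1 all 5 stayed called and Scap was also called lower. In that fit D18N and WT differ in sex pattern as well as in genotype.

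**Figure D2:**
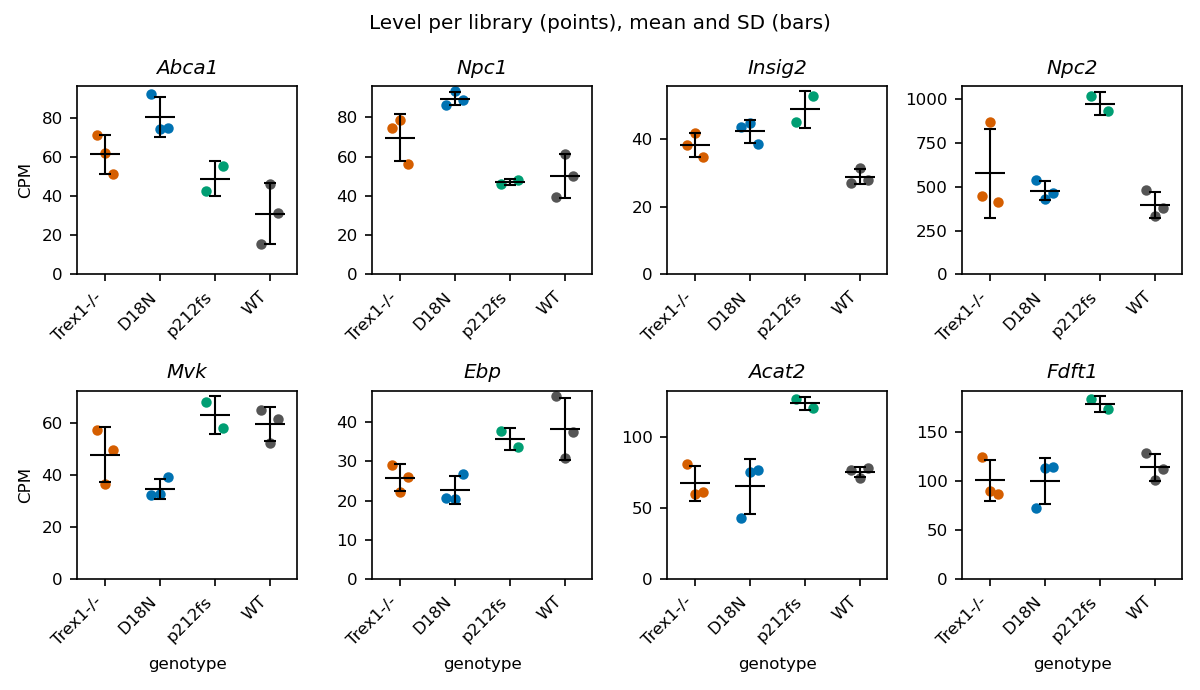
CPM of 8 of the 28 genes in each library (points), with the mean and SD of each genotype (bars), genotypes along the horizontal axis. Abca1, Npc1 and Insig2 are higher in D18N than in WT without overlap, Mvk and Ebp are lower, and Acat2, Fdft1 and Npc2 are highest in the 2 p212fs libraries.

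In p212fs cells against WT cells, 2 of the 28 genes changed, and both rose: Insig2 and Npc2. They are 7.14% of the 28, against 17.1% of all genes called either way and 8.13% called higher, and 0 of the 28 were called lower, against 8.95% of all genes. At an unadjusted p under 0.05 there were 8 of the 28 (28.6%), against 33.2% of all genes. Of the 18 enzymes, 0 were called by edgeR's quasi-likelihood test, 4 (22.2%) had an unadjusted p under 0.05, and the median log2 fold change was 0.25, against -0.02 for all genes. For 10 of the 18 enzymes (55.6%) both p212fs libraries were above all 3 WT libraries, against 30.8% of all genes, and for 2 (11.1%) both were below, against 23.4% of all genes. Both p212fs libraries have a male pattern and all 3 WT libraries a female one, so these shifts cannot be told apart from embryo sex. With a sex term, set by Trex1-/- and D18N, the fold change was above 0 for 10 of the 28, against 18 without it.

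Insig2 had 44.9 and 52.6 CPM in the p212fs libraries, against 27.1, 31.4 and 28 CPM in the WT libraries. The p212fs libraries were the highest genotype on average, and the groups did not overlap. It rose 1.62-fold (log2 fold change 0.70 ± 0.13 SE; edgeR, adjusted p = 0.00698), and the call was lost without p212fs 2 (adjusted p = 0.0965). Npc2 had 1019.6 and 929 CPM in the p212fs libraries, against 480, 335 and 379 CPM in the WT libraries. Both p212fs libraries were above WT, and Trex1-/- 2, with 867 CPM, was the only other library near them. Npc2 rose 2.34-fold (log2 fold change 1.23 ± 0.30 SE; edgeR, adjusted p = 0.0181). That call was lost when WT 2, WT 3 or either p212fs library was left out, with adjusted p up to 0.124, and with a replicate block (0.0507). With embryo sex as a term in the fit, Insig2 (log2 fold change 0.84) and Npc2 (1.90) remained called. Neither p212fs nor WT has libraries of both sex patterns, so the term was set by Trex1-/- and D18N. Their only female-pattern libraries were Trex1-/- 2, itself high in Npc2, and D18N 1.

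Acat2, Fdft1 and Tm7sf2 were high in both p212fs libraries without passing the test against WT. Acat2, the cytosolic acetoacetyl-CoA thiolase, had 127 and 120.5 CPM in the p212fs libraries, against 76.8, 71.5 and 78.3 CPM in the WT libraries (log2 fold change 0.65 ± 0.22 SE; edgeR, adjusted p = 0.0629). Fdft1, the squalene synthase, had 184 and 173 CPM in the p212fs libraries, against 129, 101 and 112 CPM in the WT libraries (0.58 ± 0.21; edgeR, adjusted p = 0.0836). Tm7sf2 had 28.6 and 22.6 CPM in the p212fs libraries, against 12.0, 12.2 and 13.2 CPM in the WT libraries (0.98 ± 0.36; edgeR, adjusted p = 0.0867). None of the 3 overlapped between the groups. With embryo sex as a term, their log2 fold changes were 0.14, 0.16 and 0.10. These values depend on Trex1-/- 2 and D18N 1, the only female-pattern libraries of the genotypes that set the term. When the fit was restricted to p212fs and WT libraries, 8 of the 28 genes were called higher: Acat2, Fdft1, Insig2, Msmo1, Npc2, Nsdhl, Sc5d and Tm7sf2. That fit called 1615 of all genes higher, and in it genotype cannot be told apart from embryo sex. Without D18N 1, a library of neither genotype, Acat2 (edgeR, adjusted p = 0.0105) and Fdft1 (0.0352) were called higher too, and Srebf2 lower (0.0459). Of the 28, 14.3% were then called higher and 3.57% lower, against 8.51% and 8.84% of all genes.

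Srebf2 had 252 and 232 CPM in the p212fs libraries, against 285, 312 and 319.7 CPM in the WT libraries. Both p212fs libraries were below all 3 WT libraries, and the difference did not pass the test (log2 fold change -0.39 ± 0.13 SE; edgeR, adjusted p = 0.0608). It was called lower with DESeq2, without WT 1 and without D18N 1. Abca1 had 42.5 and 55.2 CPM in the p212fs libraries, so p212fs 1 lay within the WT range of 15.5 to 46.3 CPM. Npc1, at 46.0 and 48.2 CPM in the p212fs libraries, also lay within the WT range of 39.3 to 61.6 CPM.

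In Trex1-/- cells against WT cells, 0 of the 28 genes were called by edgeR's quasi-likelihood test, as were 0% of all genes tested. At an unadjusted p under 0.05 there were 4 of the 28 (14.3%) and 3862 of all 16990 genes (22.7%). DESeq2 called 846 genes, with Abca1 the single one of the 28, and limma-voom called 1 gene and 0 of the 28. The 4 were Abca1, Insig2, Npc1 and Ebp. Without WT 2, edgeR called 2269 genes, and these 4 were among them.

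Abca1 had 71.1, 61.9 and 51.2 CPM in the Trex1-/- libraries, against 15.5, 46.3 and 31.5 CPM in the WT libraries (log2 fold change 0.98 ± 0.30 SE; edgeR, adjusted p = 0.136). Insig2 had 38.3, 41.7 and 34.6 CPM in the Trex1-/- libraries, against 27.1, 31.4 and 28 CPM in the WT libraries (0.40 ± 0.12; edgeR, adjusted p = 0.137). Ebp had 29.1, 22.3 and 26.1 CPM in the Trex1-/- libraries, against 46.5, 30.8 and 37.4 CPM in the WT libraries (-0.59 ± 0.18; edgeR, adjusted p = 0.137). For these 3 genes no Trex1-/- library overlapped WT, and Scap, with 79.2, 83.8 and 78.5 CPM in the Trex1-/- libraries, against 85.9, 84.8 and 90.4 CPM in the WT libraries, was the only other of the 28 without overlap. These are 2 of the 28 higher and 2 lower (7.14% each), against 10% and 12.5% of all genes. Npc1 had 74.5, 78.5 and 56.3 CPM in the Trex1-/- libraries, with Trex1-/- 3 inside the WT range (0.47 ± 0.16; edgeR, adjusted p = 0.145). Mvk had 57.3, 36.5 and 49.4 CPM in the Trex1-/- libraries, also overlapping WT (-0.34 ± 0.16; edgeR, adjusted p = 0.242). Npc2 had 449.7, 867 and 413 CPM in the Trex1-/- libraries, where Trex1-/- 2 alone was high. The comparisons of the mutants with WT share the same 3 WT libraries.

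**Figure D3:**
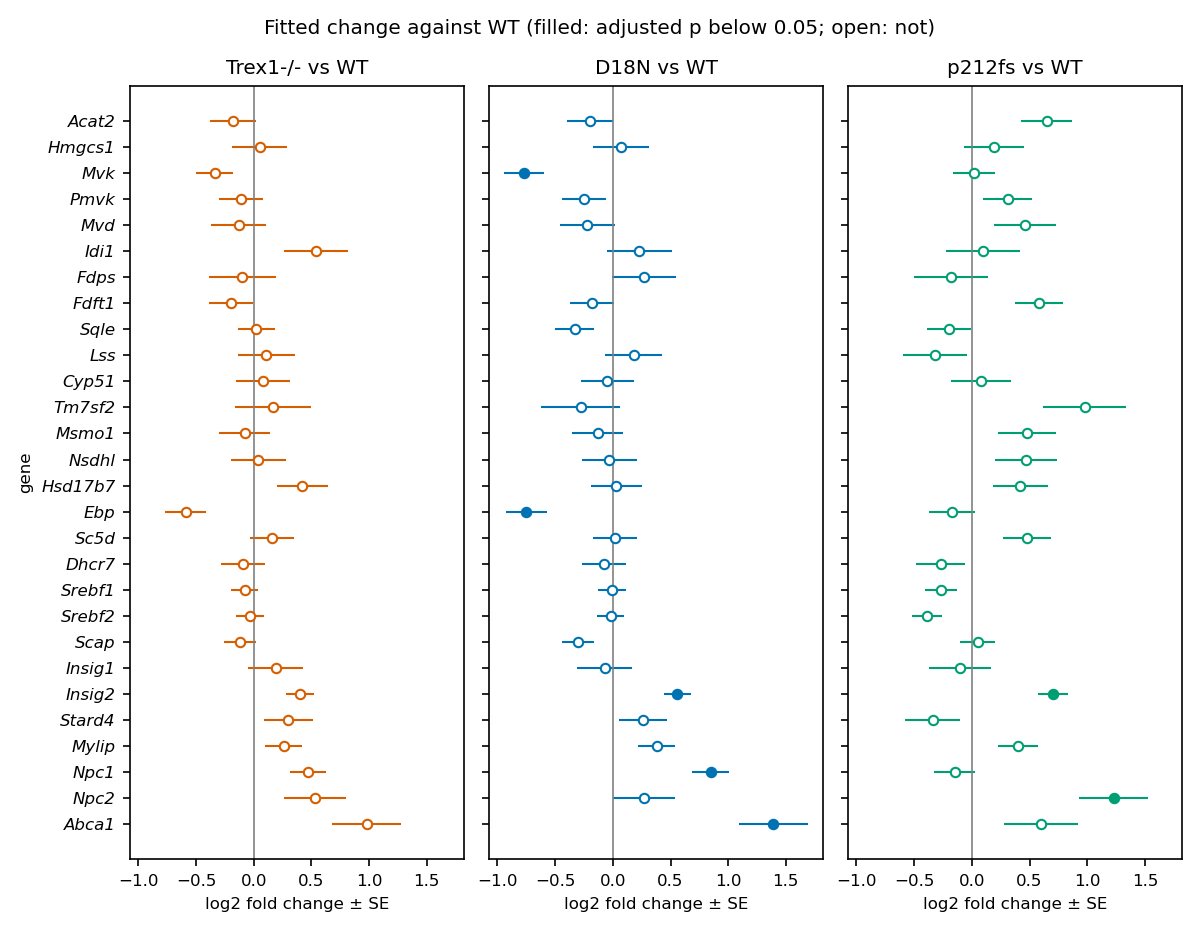
Fitted log2 fold change against WT with its SE for each of the 28 genes, in Trex1-/- (left), D18N (middle) and p212fs (right); filled points have an adjusted p under 0.05. Filled points are 0 in Trex1-/-, 5 in D18N (Mvk, Ebp, Insig2, Npc1 and Abca1) and 2 in p212fs (Insig2 and Npc2).

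The p212fs cells differed from D18N cells in 8 of the 28 genes (28.6%, against 38.7% of all genes called either way). Acat2, Fdft1, Tm7sf2, Mvk, Ebp and Npc2 were higher in p212fs, and Npc1 and Srebf2 were lower. Of the 18 enzymes, 5 were higher (27.8%, against 18.6% of all genes called higher) and 0 lower, against 20.1% of all genes. For 11 of the 18 (61.1%) both p212fs libraries were above all D18N libraries, against 37.3% of all genes. The enzymes' median log2 fold change was 0.48, against -0.03 for all genes. Without D18N 1, 3 of the 18 were called higher (Acat2, Fdft1 and Mvk; 16.7%, against 16.4% of all genes) and 2 lower (Fdps and Lss; 11.1%, against 17.2%). The median was then 0.27, against 0.01 for all genes, 11 of the 18 were again above D18N without overlap, against 43% of all genes, and 4 were below it (22.2%, against 35.9%).

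Acat2 had 127 and 120.5 CPM in the p212fs libraries, against 43.3, 75.6 and 77.1 CPM in the D18N libraries (log2 fold change 0.85 ± 0.22 SE; edgeR, adjusted p = 0.0115). Fdft1 had 184 and 173 CPM in the p212fs libraries, against 72.8, 113 and 114 CPM in the D18N libraries (0.76 ± 0.21; edgeR, adjusted p = 0.0167). In both genes D18N 1 was far below D18N 2 and 3, yet the other D18N libraries were also below p212fs. Without D18N 1 the log2 fold changes were 0.63 and 0.58 and both genes stayed called. Tm7sf2 had 28.6 and 22.6 CPM in the p212fs libraries, against 8, 9.74 and 12.9 CPM in the D18N libraries (1.26 ± 0.37; edgeR, adjusted p = 0.0198). Without D18N 1 Tm7sf2 was not called (edgeR, adjusted p = 0.0541).

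Mvk had 68.1 and 57.8 CPM in the p212fs libraries, against 32.2, 32.7 and 39.1 CPM in the D18N libraries, without overlap (log2 fold change 0.79 ± 0.18 SE; edgeR, adjusted p = 0.00666). Ebp had 37.6 and 33.6 CPM in the p212fs libraries, against 20.7, 20.5 and 26.8 CPM in the D18N libraries (0.58 ± 0.20; edgeR, adjusted p = 0.0384), and this call was lost with a sex term (adjusted p = 0.0752), without D18N 1, without D18N 2 and without either p212fs library. The p212fs levels of Ebp lay within the WT range, and of Mvk p212fs 2 did, with p212fs 1 just above it. Npc2 had 1019.6 and 929 CPM in the p212fs libraries, against 540.1, 429.9 and 465 CPM in the D18N libraries (0.96 ± 0.30; edgeR, adjusted p = 0.0253).

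Npc1 had 46.0 and 48.2 CPM in the p212fs libraries, against 86.5, 93.3 and 89.0 CPM in the D18N libraries. The lysosomal pair thus differed in opposite directions, Npc2 higher and Npc1 lower in p212fs. The Npc1 level in p212fs was 0.501 of that in D18N (log2 fold change -1 ± 0.18 SE; edgeR, adjusted p = 0.00222). Srebf2 had 252 and 232 CPM in the p212fs libraries, against 262, 319 and 316 CPM in the D18N libraries (-0.38 ± 0.13; edgeR, adjusted p = 0.0408). Without p212fs 1 the count of the 28 called higher was 0 and Npc1 remained the single gene called lower. Without p212fs 2 Acat2 and Mvk were called higher and Npc1 lower, and without D18N 2 Acat2, Fdft1, Msmo1 and Mvk higher and Npc1 lower. The call of Srebf2 was lost in 12 of 19 alternatives and that of Npc2 in 6, among them those without D18N 2 or D18N 3. Without D18N 1, 5 were called higher and 5 lower (17.9% each, against 16.4% and 17.2% of all genes). Without Trex1-/- 1, 9 were called higher and 1 lower, where all genes called numbered 3623 higher and 3492 lower.

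Against Trex1-/- cells, p212fs cells had higher Acat2 and Fdft1 and lower Npc1 (3 of 28, 10.7%, against 32.5% of all genes called either way, 15.4% higher and 17.1% lower). For 8 of the 18 enzymes (44.4%) both p212fs libraries were above all Trex1-/- libraries, against 32.8% of all genes. Acat2 had 127 and 120.5 CPM in the p212fs libraries, against 81.4, 59.7 and 61.3 CPM in the Trex1-/- libraries (log2 fold change 0.83 ± 0.22 SE; edgeR, adjusted p = 0.0154). Fdft1 had 184 and 173 CPM in the p212fs libraries, against 125, 89.8 and 87.3 CPM in the Trex1-/- libraries (0.78 ± 0.21; edgeR, adjusted p = 0.0182). Npc1 had 46.0 and 48.2 CPM in the p212fs libraries, against 74.5, 78.5 and 56.3 CPM in the Trex1-/- libraries (-0.62 ± 0.18; edgeR, adjusted p = 0.0233). All 3 calls were lost when either p212fs library was left out, the calls of Acat2 and Fdft1 also without Trex1-/- 3, and that of Npc1 also without Trex1-/- 2. Without Trex1-/- 1, 6 of the 28 were called higher: Acat2, Fdft1, Msmo1, Mvd, Pmvk and Tm7sf2. All genes called higher in that fit numbered 2431. In D18N against Trex1-/- cells, 0 of the 28 were called by edgeR, against 6.8% of all genes either way, 3.95% higher and 2.85% lower, and 2 (7.14%, Mvk and Npc1) had an unadjusted p under 0.05, against 23.7% of all genes. DESeq2 and limma-voom also called 0 of the 28 there.

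**Figure D4:**
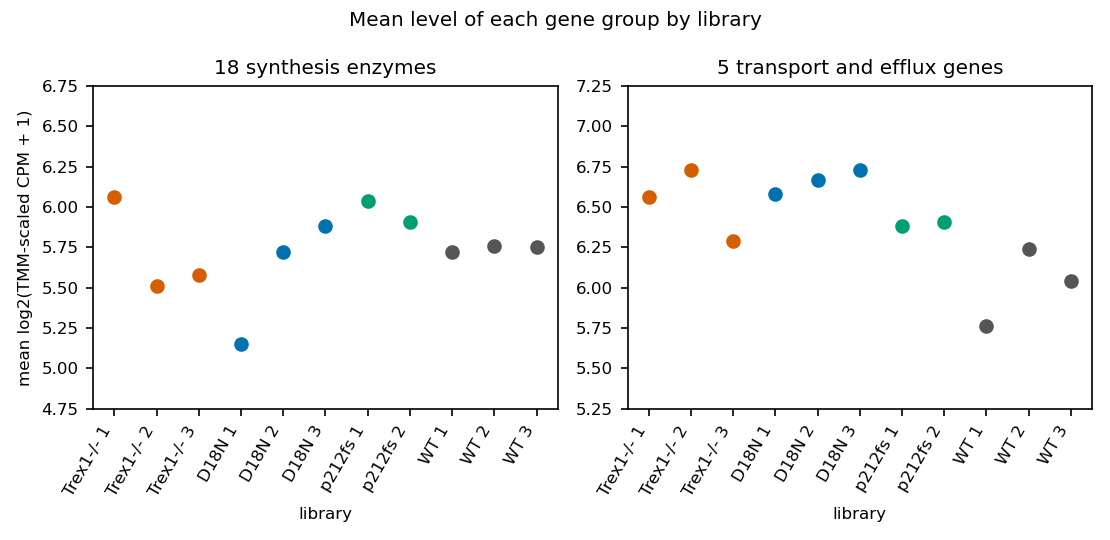
Mean log2(TMM-scaled CPM + 1) of the 18 synthesis enzymes (left) and of the 5 transport and efflux genes (right) in each library; each point is 1 library, coloured by genotype. Enzyme means run from 5.15 in D18N 1 to 6.06 in Trex1-/- 1, and all 8 mutant libraries lie above the 3 WT libraries for transport and efflux, where WT 1 is lowest at 5.76.

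The mean log2 level of the transport and efflux genes was higher in every mutant library than in every WT library. It was 6.56, 6.73 and 6.29 in the Trex1-/- libraries, 6.58, 6.67 and 6.73 in the D18N libraries, 6.38 and 6.41 in the p212fs libraries, and 5.76, 6.24 and 6.04 in the WT libraries. Trex1-/- 3 stood close to WT 2, and WT 1, with low Abca1 and Npc1, was the lowest library. The fitted fold change was above 0 for 5 of the 5 genes in Trex1-/- and in D18N, and for 3 in p212fs. All genes above 0 were 50.5%, 52.5% and 48.3%. In both p212fs libraries Npc1 and Stard4 were below the WT mean, so the p212fs mean rests on Npc2, Abca1 and Mylip. Mylip, a ubiquitin ligase for lipoprotein receptors and an LXR target like Abca1, had 43.9, 53.2 and 51.4 CPM in the D18N libraries and 49.2 and 56.3 CPM in the p212fs libraries, against 29.5, 43.3 and 42.6 CPM in the WT libraries. Neither difference in Mylip passed the test. Stard4, a cytosolic sterol carrier, ranged from 39.4 to 73.3 CPM in D18N, from 36.0 to 42.5 CPM in p212fs and from 38.7 to 60.4 CPM in WT.

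Of the 28 genes, 10 (35.7%) were called in at least 1 of the 6 comparisons and 18 in none, against 56.1% of all genes called in at least 1. Of the uncalled mevalonate enzymes, Hmgcs1 ranged from 148 to 285 CPM over all libraries, and Pmvk, the phosphomevalonate kinase, from 15 to 30.5 CPM. Mvd, the decarboxylase that follows it, ranged from 29.3 to 72 CPM, Idi1, the isopentenyl diphosphate isomerase, from 17.8 to 48.2 CPM, and Fdps from 4.71 to 11.4 CPM. Of the later enzymes, Sqle, the squalene epoxidase, ranged from 92.3 to 183 CPM, Lss, the lanosterol synthase, from 52.1 to 109 CPM, and Cyp51 from 128 to 293 CPM. In each of Hmgcs1, Sqle and Cyp51 the lowest library was D18N 1 and the highest Trex1-/- 1. Msmo1, a sterol methyl oxidase, ranged from 65.1 to 158 CPM, Nsdhl, an X-linked sterol dehydrogenase, from 20.5 to 48.4 CPM, and Hsd17b7, a sterol ketoreductase, from 24.4 to 53.0 CPM. Sc5d, a sterol desaturase, ranged from 47.0 to 95.3 CPM and Dhcr7, the dehydrocholesterol reductase, from 34.7 to 63.1 CPM. Scap, the SREBP escort, ranged from 58.6 to 95.7 CPM, with D18N 2 and 3 lowest.

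Genes of 5 lists of neighbouring pathways were read in the same fit. Of all genes, 12.2% were called higher and 13.2% lower in D18N against WT. In p212fs against WT these shares were 8.13% and 8.95%. The counts in these short lists are to be read beside those shares. In the list of SREBP processing and sterol-regulated degradation (10 genes), 0 changed in D18N and 3 in p212fs against WT. Erlin1, an endoplasmic reticulum scaffold in that degradation, fell in p212fs to 25.9 ± 2.52 CPM, against 36.5 ± 5.24 CPM in WT (SD, n = 2 and 3; log2 fold change -0.55 ± 0.14 SE; edgeR, adjusted p = 0.0235). Tmub1 and the ubiquitin ligase gene Rnf145 rose in p212fs (log2 fold changes 0.68 and 0.65; edgeR, adjusted p = 0.0358 and 0.0440). In fatty acid synthesis (16 genes), 2 rose and 1 fell in D18N, and 1 rose in p212fs. Scd1, the stearoyl-CoA desaturase, had 214, 315 and 360.1 CPM in the D18N libraries, against 108, 135 and 111 CPM in the WT libraries, and rose (1.34 ± 0.27; edgeR, adjusted p = 0.00751). Me1, the malic enzyme that supplies NADPH, had 149 and 149.6 CPM in the p212fs libraries, against 79.2, 83.9 and 85.1 CPM in the WT libraries (0.79 ± 0.13; edgeR, adjusted p = 0.00372). Acsl3, an acyl-CoA synthetase, rose in D18N (0.64; edgeR, adjusted p = 0.0275). Elovl1, a fatty acid elongase named after its values were seen, was the gene that fell in D18N (-0.54; edgeR, adjusted p = 0.0321). Of 19 alternatives, the call was lost in 7 for Erlin1, 8 for Tmub1, 9 for Rnf145, 7 for Acsl3, 7 for Elovl1, 1 for Me1 (the sex term) and 0 for Scd1.

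Of 8 genes of oxysterol synthesis and LXR, 2 rose in D18N and 1 in p212fs, and 0 fell. The shares of all genes in the paragraph above apply here too. Cyp27a1, a sterol hydroxylase that makes an oxysterol, had 3.01, 3.54 and 2.57 CPM in the D18N libraries and 3.64 and 3.51 CPM in the p212fs libraries, against 1.11, 0.872 and 1.25 CPM in the WT libraries. Both mutants were above WT without overlap (log2 fold changes 1.5 ± 0.32 SE in D18N and 1.66 ± 0.34 in p212fs; edgeR, adjusted p = 0.00881 and 0.00943). Cyp7b1, an oxysterol hydroxylase, rose in D18N (1.22 ± 0.28; edgeR, adjusted p = 0.0127). Of 15 genes of intracellular sterol transport and esterification, 2 rose and 1 fell in D18N, and 1 fell in p212fs. Vldlr, a lipoprotein receptor that MYLIP also targets, had 21.2 and 23.2 CPM in the p212fs libraries, against 55.2, 80.6 and 72.8 CPM in the WT libraries, and fell (-1.70 ± 0.23; edgeR, adjusted p = 0.00113). In D18N the same gene rose (0.58; edgeR, adjusted p = 0.0433). Tmem97, a sterol-regulated membrane protein that binds NPC1, fell in D18N (-0.84 ± 0.20; edgeR, adjusted p = 0.0123), and Lipa, the lysosomal acid lipase, rose (0.36; edgeR, adjusted p = 0.0438). Of 10 genes of the isoprenoid side branches, Pdss1, which makes the ubiquinone side chain, was the single gene called: it fell in D18N (-1.05 ± 0.21; edgeR, adjusted p = 0.00684) and in p212fs (-0.78; edgeR, adjusted p = 0.0441). Of 19 alternatives, the call was lost in 0 for Vldlr in p212fs, Cyp27a1, Tmem97 and Pdss1 in D18N, in 3 for Cyp27a1 in p212fs and in 1 for Cyp7b1. It was lost in 11 for Vldlr in D18N, 13 for Lipa and 14 for Pdss1 in p212fs.

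In Trex1-/- against WT, 0 genes of these 5 lists were called by edgeR, and 0 to 2 of each had an unadjusted p under 0.05.

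Markers of other cell types moved with the genotypes. Of 11 skeletal muscle markers tested (of 12), 11 rose in D18N, including Neb, Mylpf and Myl1, and 3 rose in p212fs. The 12 summed to 724 to 1755 CPM in D18N and 38 to 45.9 CPM in p212fs, against 11.4 to 14.3 CPM in WT. Tnnc2 was at 0 in all 11 libraries and Ckm in all p212fs and WT libraries. Of 13 macrophage markers, 13 fell in D18N and 4 in p212fs, among them C5ar1, Tyrobp and Ctss in D18N. They summed to 218 to 355 CPM in Trex1-/-, 60.8 to 124 CPM in D18N, 500 to 667 CPM in p212fs and 789 to 1029 CPM in WT. None was at 0 in all libraries of a genotype, and Cx3cr1 was at 0 in Trex1-/- 2 and D18N 3. Of 10 fibroblast markers, 3 rose and 2 fell in D18N and 6 fell in p212fs, led by Col1a2, Thy1 and Col1a1. They summed to 53245 to 62422 CPM in Trex1-/-, 69258 to 81383 CPM in D18N, 25872 to 29926 CPM in p212fs and 51536 to 57022 CPM in WT, and none of them was at 0. Of 8 neural and glial markers, 1 rose and 5 fell in D18N, Fabp7, Gap43 and Sox10 among them, and 4 fell in p212fs, Sox10 among them, with sums of 101 to 137 CPM in D18N and 165 to 198 CPM in p212fs, against 292 to 381 CPM in WT.

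Of 5 endothelial markers, Pecam1 and Kdr rose in D18N and Cdh5 fell in p212fs, with sums of 12.5 to 17.9 CPM in D18N and 6.61 to 7.14 CPM in p212fs, against 5.09 to 7.75 CPM in WT. Of 5 adipocyte markers tested (of 6), Cebpa fell in p212fs, with sums of 53.6 to 89.3 CPM in D18N and 42.6 to 44.3 CPM in p212fs, against 32.9 to 71.4 CPM in WT. Adipoq and Cidec were at 0 in p212fs. Of 5 epithelial markers, 0 were called against WT by edgeR, 2 had an unadjusted p under 0.05 in D18N and 2 in p212fs, and the highest values were 17.5 CPM for Krt14 and 6.86 CPM for Krt8, both in D18N 1. Of 12 cell cycle genes, 10 fell in D18N, Mcm3, Pcna and Mcm2 among them, and 1 in p212fs. Of 12 interferon-stimulated genes, 2 were called higher in D18N (Oas2 and Ifi44), 1 in p212fs (Ifit1) and 0 in Trex1-/-. The fold change was positive for 12 of them in Trex1-/-, 12 in D18N and 11 in p212fs. The edgeR test gave an unadjusted p under 0.05 for 12, 7 and 6 of them in the same order. The median log2 fold changes were 2.75 in Trex1-/-, 1.22 in D18N and 1.34 in p212fs. These 12 summed to 1026, 7040.2 and 1752 CPM in Trex1-/- 1, 2 and 3, so Trex1-/- 2 stood apart in them. The sums were 1279 to 1694 CPM in D18N and 2059 to 2125 CPM in p212fs, against 422 to 968 CPM in WT. The part of these markers, of the cell cycle and of embryo sex in the changes of Abca1, Npc1, Npc2, Insig2, Mvk and Ebp was not tested beyond the fit with a sex term. The 7 calls of these genes against WT remained in that fit. Its sex term was set by Trex1-/- and D18N, whose only female-pattern libraries were Trex1-/- 2 and D18N 1. The fit therefore cannot decide the part of embryo sex in p212fs.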

How the data were processed

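RNA-seq read counts per gene were deposited as a single table of 11 libraries. Per the submitters' processing notes, fastp, HISAT2 and featureCounts were used with GRCm39. Versions, annotation release and strand setting are not given in the sources used here. The deposited values are raw counts, whole numbers that are not normalized. Of 55578 lines, 1654 had no gene name and were left out (0.0804 to 0.129% of reads). Values in the text are CPM over the named-gene total, and coordinates are those of GRCm38, not of the files' build.

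Genes were tested with edgeR 4.0.16 (R 4.3.3) in a quasi-likelihood fit of all 11 libraries by genotype, with TMM scaling, filterByExpr at a minimum count of 10 and Benjamini-Hochberg adjustment over 16990 genes. All 6 comparisons came from this fit. The common biological coefficient of variation was 22.5%. The fit was tested on simulated data, where it recovered the fold sizes but called only part of the changed genes. The share called fell short of the level first required. That requirement was then replaced by checks of fold size, sign and false calls. A gene not called here is therefore not shown to be unchanged. Figures and mean levels use log2(TMM-scaled CPM + 1). Libraries of a genotype differed by more than sampling noise (chi-square per degree of freedom 7.24 to 118), so none was counted as a copy. Alternatives used DESeq2 1.42.0 and limma-voom (limma 3.58.1), other scalings and filters, and leave-one-out fits. Leaving out a p212fs library leaves 1, which is then assumed to vary like the other genotypes. In the other lists, up to 3 genes with the smallest p among those called against WT were named. The 28 genes and the other lists were chosen with earlier results of these data known. Some items are not reported here.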

Additional observations from a re-analysis of the deposited data

How the results depend on the processing

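Of 18 calls among the 28 genes, 5 were kept in all 19 alternatives (Abca1, Insig2, Mvk and Npc1 in D18N against WT, and Npc1 in p212fs against D18N), 13 were lost in at least 1, and 0 reversed. The cause of the changes below was not tested. Genes called in Trex1-/- against WT numbered 846 with DESeq2, 380 with a sex term, 261 without a filter and 1 with limma-voom, against 0. DESeq2 called 1 of the 28 higher there, and 543 of all genes. A sex term gave 2379 genes in D18N against WT and 1331 in p212fs against WT, against 4303 and 2902. Of the 28, p212fs against WT had 8 higher when fitted on the 2 genotypes alone and 1 with a replicate block. All genes called higher there numbered 1615 and 945. In the same comparison, 1 of the 28 was lower with DESeq2 and 1 with a sex term. All genes called lower there numbered 2072 and 603. D18N against Trex1-/- gave 2035 genes with DESeq2 and 417 on the 2 genotypes alone, against 1155. Of the 28, p212fs against Trex1-/- had 3 lower with DESeq2 and on the 2 genotypes alone, 2 with limma-voom and 4 with a sex term. All genes called lower numbered 3425 with DESeq2, 2656 on the 2 genotypes alone, 2684 with limma-voom and 2745 with a sex term. In p212fs against D18N, 10 of the 28 were higher with library totals alone, and 1 was lower with library totals, without a filter or with a replicate block. All genes called higher with library totals alone numbered 3677. Those called lower numbered 2959 with library totals, 3108 without a filter and 3143 with a replicate block.

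Scaling by library totals moved the share of called genes that were higher in p212fs against WT to 58.1%, against 47.6%. Same-numbered libraries of different genotypes had correlations of deviations of -0.29 to 0.20 over 15 pairs. With so few libraries per genotype, these values cannot tell whether a number marks anything shared. Among the 28, the replicate block ended the calls of Npc2 in p212fs against WT and D18N and of Srebf2 in p212fs against D18N. Leaving out single libraries gave, of the 28, 0 to 3 higher and 0 to 1 lower in Trex1-/- against WT, 3 higher and 1 to 3 lower in D18N against WT, 0 to 4 higher and 0 to 1 lower in p212fs against WT, 0 higher and 0 to 1 lower in D18N against Trex1-/-, 0 to 6 higher and 0 to 3 lower in p212fs against Trex1-/-, and 0 to 9 higher and 1 to 5 lower in p212fs against D18N. Genes called then numbered 0 to 2269, 1662 to 5350, 494 to 3947, 406 to 1917, 1622 to 6254 and 2674 to 7185 in the same order of comparisons. The lowest of these counts of genes came without D18N 2 in both D18N comparisons and without p212fs 1 in the 3 p212fs comparisons, and the highest in Trex1-/- against WT without WT 2. The lowest read count of any of the 28 genes was 83, and p212fs had 2 libraries.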
